A study of Solanum lycopersicum with 8 samples.

Results

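PDS, ZDS, LCY1 and CRTL-E-1 encode the desaturases that make lycopene and the cyclases that use it, and their transcripts were followed in leaf and ripe fruit of tomato (Solanum lycopersicum). The array carried 27 probes for these 4 genes, found by the RefSeq transcript that the array design names for each probe, out of 33750 non-control probes and 1214 genes that could be named in this way. PDS had 8 probes, ZDS 7, LCY1 8 and CRTL-E-1 4. Each of the accessions AV, TM, SK and RJ gave 1 array of whole mature leaf and 1 of whole red ripe fruit, giving 4 leaf and 4 fruit samples on 8 one-colour arrays, and the labels name no treatment. The labels place the origin of AV in Hyderabad, of TM in Kashmir and of SK and RJ in Jammu province, and describe the accessions as differing in ripening progress and in fruit carotenoids. Nothing in them tells single plants from pooled ones, so p-values measure the spread between these arrays, which may be partly technical.

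Carotenoids are made in plastids from phytoene, a colourless molecule that is desaturated step by step. Phytoene desaturase (PDS) forms zeta-carotene and zeta-carotene desaturase (ZDS) carries the desaturation on to lycopene, the red pigment of ripe tomato. Lycopene is then closed into rings: the beta-cyclase encoded by LCY1 (also LCY-B) makes beta-carotene, and the epsilon-cyclase encoded by CRTL-E-1 (also Lcy-e, the gene of the Delta locus) acts with it on the way to alpha-carotene and lutein, main carotenoids of green leaves.

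Levels are given as log2 of the processed signal minus each array's 75th percentile over 3085 probes well above background on all arrays, so a level of -2 lies 2 log2 units under that percentile. The share of probes with signal well above background ranged over the arrays from 17.2% to 24.4%, and no spot was saturated. The lowest level that counted as well above background lay between -3.80 and -3.23, and probes never above background had array medians between -5.82 and -5.30. All 5 leaf markers on the array, among them CAB4, of the light-harvesting antenna, were lower in fruit, and all 5 ripe fruit markers, among them 2A11 and Psy1, were higher. The single listed seed marker, LEA14, stood at -0.12 ± 0.64 (fruit minus leaf, log2 ± SE, adjusted p = 0.886). It was at -0.09 in leaf and -0.21 in fruit, above background on all arrays, so it gives no measure of seed content. No trichome marker was on the array.

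The desaturase and cyclase transcripts differed in how they stood in the 2 tissues. LCY1 and CRTL-E-1 were measured in every leaf and were not well above background in any fruit, while PDS and ZDS were measured in both tissues at levels that overlapped. By limma, 2 of the 4 genes were lower in fruit, none was higher and 2 did not pass, beside 54.7% of 4727 targets called in either direction and 28.9% called lower. A target is a named gene, or a transcript of the array design where no name was found. Fruit and leaf levels of LCY1 and of CRTL-E-1 did not overlap, as for 56% of targets, so the size of these counts is not particular to the 4 genes. Both cyclase genes entered the test through leaf alone, since a probe was tested where all 4 arrays of either tissue were well above background, so the counts and the median describe the genes and support nothing further. The median difference of the 4 genes was -1.74 and that of all targets -0.02 (fruit minus leaf, log2). All leaf arrays lay on slide 1 and all fruit arrays on slides 2 and 3, so tissue and slide 1 cannot be told apart, nor can fewer expressing cells and less RNA per cell. No slide held both tissues, so no within-slide value exists. With slide as a fixed term, which leaves AV and TM to set the tissue difference, LCY1 stood at -4.08 (adjusted p = 0.000895), CRTL-E-1 at -3.83 (adjusted p = 0.000611), PDS at 0.54 and ZDS at -0.07, the last 2 not called.

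**Figure D1:**
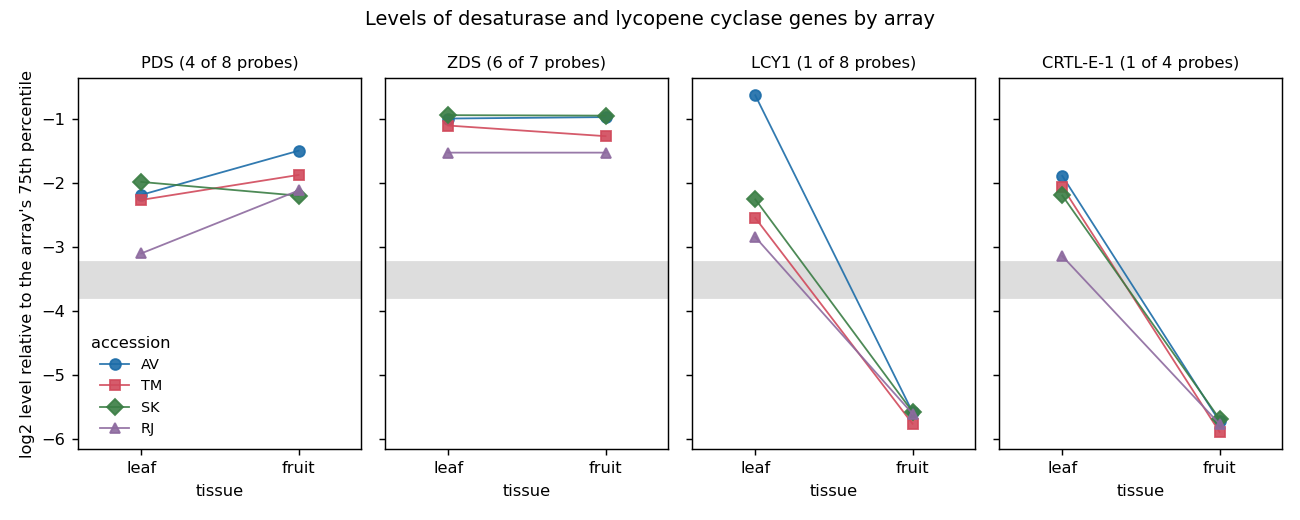
Level of each gene (y axis, log2 relative to the 75th percentile of the array) in leaf and fruit, as the mean of the probes tested, with 1 point per array and a line joining the arrays of an accession. The grey band spans the lowest level well above background over the 8 arrays. LCY1 and CRTL-E-1 lie above the band in leaf and below it in fruit, and PDS and ZDS lie above it in both tissues.

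PDS was at -2.19 in AV leaf, -2.27 in TM leaf, -1.99 in SK leaf and -3.10 in RJ leaf, as the mean of its 4 tested probes. In fruit it was at -1.50 in AV, -1.88 in TM, -2.20 in SK and -2.12 in RJ. Fruit was above leaf in AV, TM and RJ and below it in SK, and the 2 groups overlapped. The difference of 0.46 ± 0.30 (fruit minus leaf, log2 ± SE, 4 accessions) did not pass (adjusted p = 0.228), and its 95% interval ran from -0.24 to 1.16, which holds no change as well as a rise of more than 1 log2 unit. RJ had the largest difference, 0.98, and SK the only negative one, -0.21.

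The 8 PDS probes differed in size. The 4 tested probes, BT_S_96_P000577, A_96_P054271, BT_S_96_P000576 and BT_S_96_P000579, gave between 0.35 and 0.58, with none called, and SK was the single accession below 0 in each of them. BT_S_96_P000579, at 0.58, was above background on 3 leaf arrays and 4 fruit arrays, with RJ leaf at -4.10. It passed the filter through fruit alone, which favours a positive difference. With only probes above background on all arrays, PDS stood at 0.42 (limma, adjusted p = 0.281). The other 4 probes were too dim to be tested. BT_S_96_P000578 had a mean difference of 0.65 and BT_S_96_P000580 of 1.11, and these were above background on 2 fruit arrays and on 1. A_96_P234734 and A_96_P190654 were never above background and stood at 1.57 and 1.20, with fruit levels from -4.74 to -3.77 and leaf levels from -6.09 to -5.36. With all 8 probes averaged, without a filter on dim probes, PDS was called higher in fruit (0.80, adjusted p = 0.0344). Scaled to spike-in probes, PDS had the other sign (-0.85, adjusted p = 0.0983). The spike-in scaling rests on 3 of the 10 spike-in probes on the array, those above background on all arrays.

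ZDS, which acts next, had the smallest tissue difference of the 4 genes under the percentile scaling, but not under spike-in scaling, where that of PDS was smaller. It was at -1.0 in AV leaf, -1.11 in TM leaf, -0.95 in SK leaf and -1.53 in RJ leaf. The fruit levels were -0.98 in AV, -1.27 in TM, -0.95 in SK and -1.53 in RJ. The accessions had the same order in both tissues, from SK through AV and TM to RJ, although SK and AV lay close together and the F test of accession did not pass. The largest shift between tissues was -0.17, in TM. The 4 differences had an SD of 0.09 around a mean of -0.04. The fitted SE, which limma draws towards that of other targets, was 0.26, the adjusted p was 0.913 and the 95% interval ran from -0.64 to 0.56.

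The 6 tested ZDS probes gave between -0.28 and 0.11, and none was called. BT_S_96_P000646 was lower in fruit in all 4 accessions, with differences from -0.40 to -0.10, and BT_S_96_P000650 was higher in all 4, from 0.02 to 0.25. The interval of BT_S_96_P000646 ran from -0.84 to 0.39 and that of BT_S_96_P000650 from -0.50 to 0.72, and neither was called. Within accessions the difference of BT_S_96_P000650 exceeded that of BT_S_96_P000646 by 0.12 in AV, 0.51 in TM, 0.26 in SK and 0.44 in RJ, a mean of 0.33 ± 0.18 (SD, n = 4). The pair was picked after its values were seen and was not tested. The value of A_96_P054681 in SK leaf was dropped as an outlier spot, so the SK leaf mean rests on 5 probes. The SK fruit mean rests on 6 and includes that probe at -0.66. The near-equal SK levels, and the SD of the 4 differences that uses them, therefore come from unequal probe sets. With only probes complete on all arrays, ZDS stood at -0.02. The seventh probe, A_96_P245395, was never above background and had fruit levels from -4.48 to -3.78 and leaf levels from -5.48 to -5.19. Spike-in scaling moved every target by -1.31 and placed ZDS lower in fruit (-1.35, adjusted p = 0.00751).

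**Figure D2:**
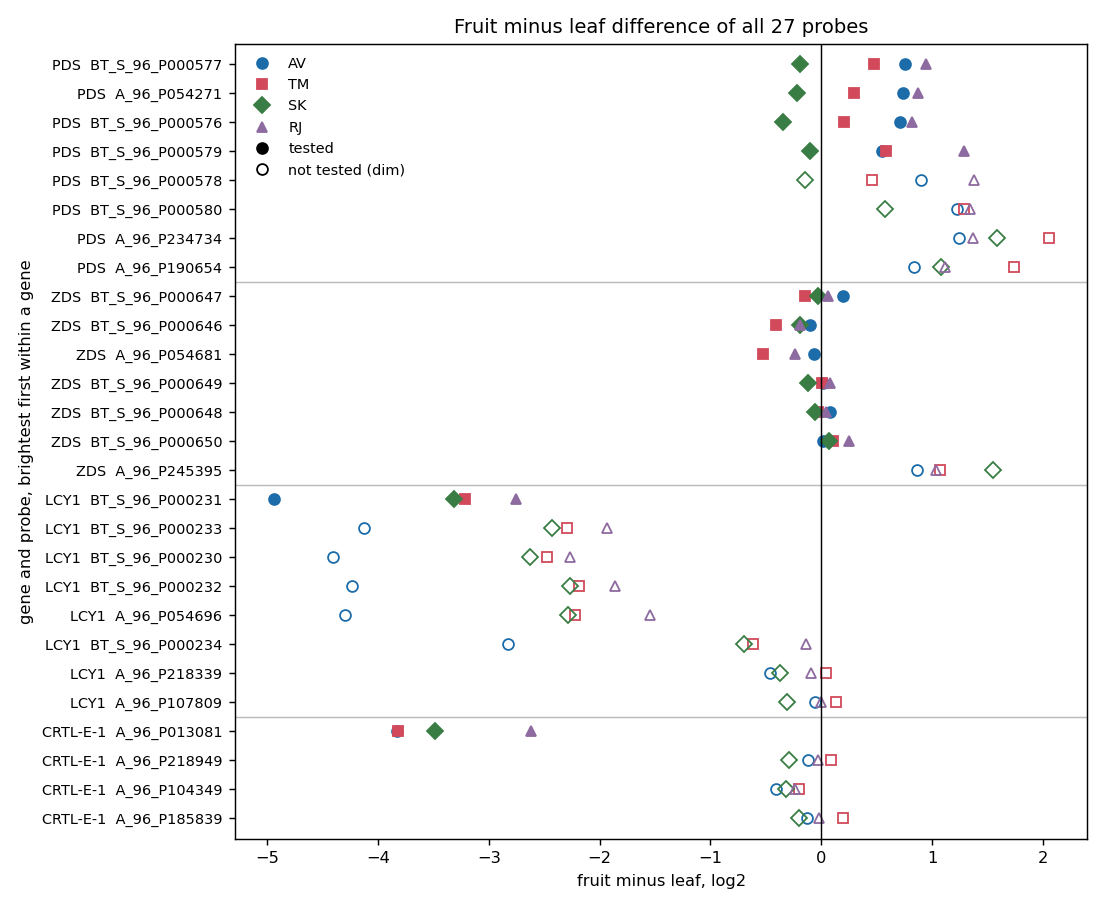
Fruit minus leaf difference (x axis, log2) of all 27 probes, by gene and in the order of their mean level, with 1 symbol per accession, filled where the probe was tested and open where it was too dim. PDS probes lie mostly above 0 and ZDS probes near 0, except for the untested A_96_P245395. The brighter LCY1 probes and 1 CRTL-E-1 probe lie far below 0.

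LCY1, the beta-cyclase gene, was at -0.64 in AV leaf, -2.55 in TM leaf, -2.26 in SK leaf and -2.85 in RJ leaf by its single tested probe, BT_S_96_P000231. In fruit the same probe lay between -5.76 and -5.58 and was not well above background on any array. Every fruit value lay below every leaf value. By a bound on means, LCY1 was 2.83-fold lower in fruit. For this bound the leaf mean was set against the fruit arrays' lowest level well above background, or the probe's own where that was higher. The bound is approximate, since some signals above that level were not flagged. BT_S_96_P000580 of PDS exceeded that level in AV and TM fruit but was flagged on 1 fruit array. The leaf mean includes AV leaf, the highest at -0.64, so 2.83-fold is not a minimum for every accession. BT_S_96_P000231 had passed the filter through leaf alone, which favours a difference of this sign. Its fruit SD of 0.09 is that of values at background. The measured difference was -3.56 ± 0.39 (log2 ± SE, adjusted p = 0.000113). The 4 accession differences had an SD of 0.96, and limma drew the fitted SE towards that of other targets. They ran from -4.94 in AV to -2.76 in RJ, an order set by the leaf levels. Averaged over all 8 probes with no filter, LCY1 stood at -1.97 (adjusted p = 0.0157).

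The other LCY1 probes were dimmer and gave smaller differences in the same direction. BT_S_96_P000230, BT_S_96_P000232, BT_S_96_P000233 and A_96_P054696 were above background on 1 or 2 leaf arrays, with mean differences from -2.94 to -2.59. Their leaf means include values not above background and are raised by AV leaf, so no bound is given. BT_S_96_P000234 stood at -1.07. A_96_P218339 and A_96_P107809, never above background, stood at -0.22 and -0.06. Averaged over the 6 probes above background on at least 1 array, LCY1 was at -2.58 (adjusted p = 0.00355), a choice made after the data were seen. With the normexp background correction it was at -1.90 (adjusted p = 0.0322).

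CRTL-E-1, the epsilon-cyclase gene, was measured by 1 of its 4 probes, A_96_P013081. That probe was at -1.89 in AV leaf, -2.07 in TM leaf, -2.20 in SK leaf and -3.15 in RJ leaf, and between -5.89 and -5.69 in fruit, where no array was well above background. The groups did not overlap. By the same approximate bound CRTL-E-1 was 2.38-fold lower in fruit, with a measured difference of -3.44 ± 0.31 (log2 ± SE, adjusted p = 4.08e-05). This probe too passed the filter through leaf alone, against fruit values at background with an SD of 0.09. A_96_P218949, A_96_P104349 and A_96_P185839 were never above background on any array, with levels from -5.93 to -5.18 and mean differences from -0.29 to -0.04, so the result of CRTL-E-1 rests on 1 probe. Without a filter on dim probes its mean over 4 probes was -0.97 (adjusted p = 0.00595). Of the 12 probes tested over the 4 genes, 2 were called, both lower in fruit, beside 27.9% of all 6657 probes called lower.

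The steps before and after lycopene were then set against each other within each accession, as the tissue difference of a cyclase gene minus that of a desaturase gene. A constant taken from an array cancels in this measure, so it does not depend on the percentile, median or spike-in scaling. LCY1 minus PDS was -5.63 in AV, -3.60 in TM, -3.10 in SK and -3.74 in RJ, with a mean of -4.02 ± 1.11 (SD, n = 4). CRTL-E-1 minus PDS had a mean of -3.90 ± 0.57 (SD, n = 4), LCY1 minus ZDS of -3.52 ± 0.99 and CRTL-E-1 minus ZDS of -3.40 ± 0.54. These signs are in part a product of the filter, which the cyclase probes passed through leaf alone. Against ZDS, whose tissue differences had an SD of 0.09, the spread over accessions follows mostly the cyclase levels in leaf. Against PDS it also takes in the PDS differences. Those had an SD of 0.51, beside 0.57 for CRTL-E-1 and 0.96 for LCY1. With no filter the 4 means were -2.77, -1.76, -2.13 and -1.12 in the same order. In the exact two-sided sign-flip permutation test, 2 of the 16 sign patterns were as extreme for each pair, before and after adjustment over the 4 pairs. That is the smallest p that 4 accessions allow, so the differences cannot pass 0.05 in this design and are given as values. The fruit values of the cyclases lay at background, where a lower transcript level gives no lower signal.

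In leaf the accessions stood apart most in LCY1. The AV leaf value was 1.92 above the mean of the other leaf arrays, and 97.0% of targets had a lower such deviation in AV leaf. AV was the highest leaf for LCY1 and CRTL-E-1, as for 37.5% of targets. On each of the 6 LCY1 probes above background on at least 1 array, AV leaf exceeded the next leaf array by 1.62 to 2.13, and the mean of the others by 1.92 to 2.42. On the 2 probes never above background it exceeded that mean by 0.40 and 0.07. The LCY1 leaf range of 2.21 was wider than that of 90.4% of targets, while the CRTL-E-1 range was 1.25, the PDS range 1.12 and the ZDS range 0.58. With 1 leaf array per accession these values have no replicate.

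**Figure D3:**
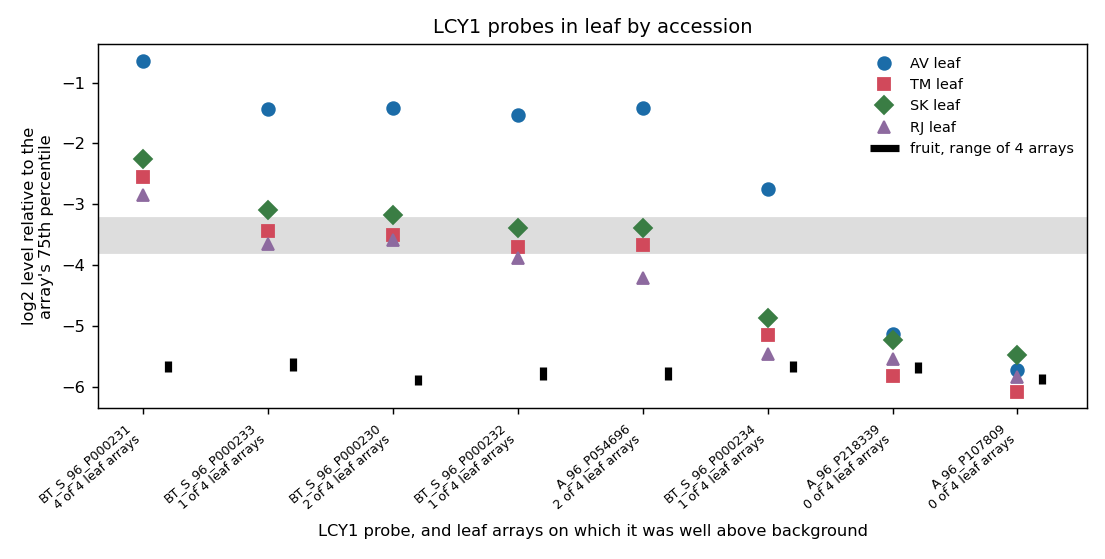
Level (y axis, log2 relative to the 75th percentile of the array) of the 8 LCY1 probes in the leaf arrays, with 1 symbol per accession. Black bars span the 4 fruit arrays and the grey band the lowest level well above background in the leaf arrays. AV leaf stands 1.62 to 2.13 above the next leaf array on 6 probes.

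RJ leaf was the lowest leaf array for all 4 genes, as for 28.7% of targets. Relative to the mean of the other leaves it stood at -0.95 for PDS, -0.51 for ZDS, -1.03 for LCY1 and -1.09 for CRTL-E-1. Of all targets, 5.48% had a lower deviation than PDS in RJ leaf, 19.5% than ZDS, 4.55% than LCY1 and 3.94% than CRTL-E-1. In fruit, AV was highest for PDS, 0.57 above the mean of the other fruits, and SK was highest for ZDS, at 0.31. RJ fruit was lowest for ZDS, at -0.46. The cyclase values in fruit lay within ranges of 0.19 and 0.20 at background and give no order of accessions. Over both tissues together, none of the 4 genes passed the limma F test of accession, with an adjusted p = 0.999 for each and an unadjusted p of 0.388 for PDS, 0.422 for ZDS, 0.243 for LCY1 and 0.521 for CRTL-E-1. Of all targets, 0 (0%) were called at an adjusted p of 0.05 and 2.94% had an unadjusted p under 0.05.

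The rest of the pathway was described from a list of 28 genes, of which 17 were on the array and 9 could be tested. Of these 9, 4 were higher in fruit, 3 were lower and 2 did not pass, beside 25.8% of all targets called higher. The median of the 9 was 0.46. Psy1, GGPS2, CCD1B and ChrC passed the filter through fruit alone, and PSY2 and DXR through leaf alone. That favours a difference of the sign each was called with, so these counts describe the genes and support nothing further. Psy1, the fruit phytoene synthase that supplies PDS, rose by 6.33 ± 0.32 (log2 ± SE, adjusted p = 3.03e-06), with leaf values partly at background. PSY2, the phytoene synthase of green tissue, was lower in fruit, at -2.28 ± 0.35 (adjusted p = 0.000772), and was above background on 1 fruit array. With its dim probes averaged in, the call ended (-0.81, adjusted p = 0.0719). By the approximate bound used for the cyclases, GGPS2, which makes the precursor of phytoene, was 3.77-fold higher in fruit (adjusted p = 0.000869). DXR, of the plastid isoprenoid pathway, was 1.86-fold lower by that bound (adjusted p = 0.0173). The call of DXR ended without TM (-1.04, adjusted p = 0.0649) or without SK (-1.07, adjusted p = 0.0616). It also ended with normexp (-0.65, adjusted p = 0.130), with no filter (-0.42, adjusted p = 0.107) and with slide as a fixed term (-1.42, adjusted p = 0.0537). DXS, the first enzyme of that pathway (0.46 ± 0.35), and NCED1, of abscisic acid synthesis (-0.07 ± 0.63), did not pass. Under spike-in scaling NCED1 was called lower in fruit (-1.38, adjusted p = 0.00696).

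Among the other listed genes, the carotenoid cleavage dioxygenase gene CCD1B stood at 1.35 ± 0.44 (adjusted p = 0.0313). The chromoplast protein gene ChrC stood at 1.76 ± 0.48 (adjusted p = 0.0145) and CHRD at -0.78 ± 0.29 (adjusted p = 0.0485). The call of CHRD held under 6 of 27 alternatives and ended without any 1 accession (-0.96 to -0.65, adjusted p up to 0.193). That of CCD1B ended without TM, SK or RJ (0.92 to 1.35, adjusted p up to 0.141), and that of ChrC without SK (1.33, adjusted p = 0.0824). Under spike-in scaling CCD1B stood at 0.04 (adjusted p = 0.951) and ChrC at 0.45 (adjusted p = 0.393). With slide as a fixed term CCD1B stood at 0.71 (adjusted p = 0.411) and ChrC at 1.03 (adjusted p = 0.255). ChrC also lost its call when all probes on the array were tested (adjusted p = 0.0773), and CCD1B when probes above background on at least 1 array were (adjusted p = 0.0507). The 8 other genes on the array were too dim to test. They include NSY, which RefSeq gives with the synonym Cyc-B, the name of the lycopene beta-cyclase of chromoplasts. Neither of its 2 probes was above background on any array, with a leaf mean of -5.43 and a fruit mean of -5.72. VDE, which acts on the xanthophylls formed after the cyclases, was above background on 3 leaf arrays and no fruit array. PTOX, the plastid oxidase that takes up electrons from carotenoid desaturation, was above background on 2 leaf and 3 fruit arrays.

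**Figure D4:**
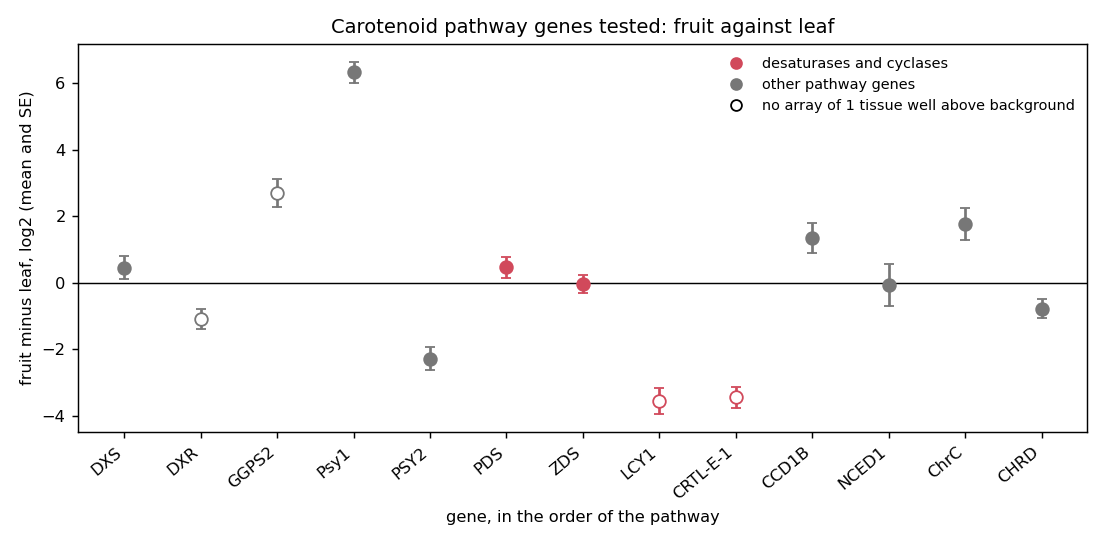
Fruit minus leaf difference (y axis, log2, point and SE of the limma fit on 8 arrays) of the 13 tested carotenoid pathway genes, in pathway order up to the cyclases. The desaturases and cyclases are in red. Open points mark genes with no array of 1 tissue well above background, whose plotted difference is measured and whose fold is an approximate bound. PDS (0.46) and ZDS (-0.04) lie near 0, after Psy1 (6.33) and PSY2 (-2.28) and before the cyclase genes LCY1 (-3.56) and CRTL-E-1 (-3.44).

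Among 363 other named genes tested with values on all arrays, those whose levels followed each gene most closely over the 8 arrays were found by Pearson's r, as a description. LCY1 was followed by AMT1-3, an ammonium transporter gene (r = 0.999), gMDH (r = 0.998) and the carbonic anhydrase gene ca2 (r = 0.991). CRTL-E-1 was followed by CAS1 (r = 0.999), the heat stress transcription factor gene HSFA3 (r = 0.997) and GAME1, of glycoalkaloid synthesis (r = 0.996). In fruit all 6 lay between -6.01 and -4.47, below the lowest level well above background, as LCY1 and CRTL-E-1 did. Their r values therefore rest on leaf levels and on the step down to background. PDS was followed less closely, by CPN21, a plastid co-chaperonin gene (r = 0.774), CCD1B (r = 0.721) and CIPK6 (r = 0.720). ZDS was followed by FPPS1, of cytosolic isoprenoid synthesis (r = 0.700), mMDH1 (r = 0.638) and the chalcone synthase gene CHS2 (r = 0.580), none of which was called between tissues.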

How the data were processed

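Per the file headers, the authors made the intensity values per spot with Feature Extraction 10.7.3.1 of Agilent, with flags (coded 0 or 1) for outlier spots and signal well above background. The authors also deposited log2 values, whose probe constant is not given in the sources used here, and these served as an alternative. Outlier spots were dropped and spots of a probe averaged on the log2 scale. Each array's 75th percentile was subtracted. Tests used the 6657 probes above background (over 50% of spots) on all 4 arrays of at least 1 tissue, and tested probes of a gene were averaged. Names came from RefSeq (SLM_r2.1), which matched 2936 of 3132 probes with a RefSeq accession. limma 3.58.1 in R 4.3.3 (lmFit, eBayes) fitted all targets, or all probes, with a fixed term for accession. This left 3 residual degrees of freedom, and p-values were adjusted by Benjamini-Hochberg at 0.05. The block follows the accession labels. The deviations of its leaf and its fruit array from the tissue means had a correlation of -0.24 to 0.05 over 3085 probes. Related genes were not tested for cross-hybridisation. The 8 arrays limit the precision. The share of spots that counts as above background was set after comparing rules on the data. Normexp used median signals with an offset of 50, and median scaling the probes above background on all arrays. The probe-by-probe comparison of AV leaf and the ranks of single arrays were chosen after seeing values. Alternatives covered scaling, background, filters, slide, the prior and left-out samples. The routines were tested on simulated data.

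The named genes were all members, the listed pathway genes on the array, and the 3 genes with the highest correlation to each member. The 4 genes, the lists and the tests were chosen with earlier results of these data known. No sequences of the genes or probes were used here.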

Additional observations from a re-analysis of the deposited data

Results flagged for a closer look

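Of 31 groups of 4 arrays examined over the 4 genes and their tested probes, 2 held an array apart from the others by Dixon's 95% criterion. Chance gives about 1 in 20. Both are the same measurement, since LCY1 was tested by 1 probe: TM fruit lay at -5.76, against -5.61 to -5.58 in the other fruit arrays, for the gene and for BT_S_96_P000231. All of these signals were at background, and probes never above background also had their lowest fruit median in TM (-5.78, against -5.64 to -5.59 in the other fruits).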

How the results depend on the processing

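LCY1 and CRTL-E-1 stayed lower in fruit and called under each of their 26 alternatives, with measured differences from -4.87 to -1.90 and from -4.75 to -0.97. These are not 26 separate checks. With 1 tested probe per gene, the brightest-probe and complete-probe settings repeat the main value, and most settings keep the probe that passed through leaf. The 2 genes gave no value among probes above background on all arrays. There 0 member genes and 0 member probes were called because both cyclases had left the fit. The 4 cyclase minus desaturase differences were negative under each of their 26 alternatives (-4.33 to -1.12), many of which could not change them. Scalings by an array constant cancel in this measure, and the block, slide and prior settings do not enter it. Leaving out 1 array repeats leaving out its accession. PDS turned to -0.85 under spike-in scaling, where its tested probes ran from -0.96 to -0.73, and was called at 0.80 without a filter. ZDS was called at -1.35 under spike-in scaling, where its highest probe was at -1.20, and had a positive sign with normexp (0.0102), all-probe percentile (0.223, lowest probe 0.0368), quantile (0.0669), deposited (0.0888), unfiltered (0.156) and brightest-probe values (0.0206). Its differences without 1 accession ran from -0.0577 to 0.00499. The cause was not tested. The count of called member probes was 8 of 12 under spike-in scaling, where 67.4% of all probes were called, 10 of 27 without a filter (18.4%) and 7 of 19 with probes above background on at least 1 array (51.2%), against 2 of 12 (56.9%) as reported. The filter of at least 1 array was added after seeing the data, as was the use of complete probes only. DXS was at -0.85 under spike-in scaling and -0.11 with slide as a fixed term. NCED1 was called at -1.38 under spike-in scaling, was positive with normexp (0.0758), all-probe percentile (0.19), quantile (0.0734), deposited (0.07), slide (0.41) and brightest-probe values (0.0131), and ran from -0.85 to 0.47 without 1 accession. No member gene passed the accession F test in the 26 fits that had one. Without the accession block no member call changed, and PDS stayed at 0.46. Leaving out 1 array gave the same tissue difference as leaving out its accession. Spike-in scaling gave 455 targets higher and 2768 lower in place of 1221 and 1365, the all-probe percentile 1579 and 1205. The flag for signal above background limits the folds of the cyclases, which are approximate bounds. The fruit levels of the cyclases are measured values at background.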
